A study of Mus musculus with 6 samples.

Results

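The fragments of 3 neighbouring mitochondrial tRNAs, those for glutamate, threonine and proline, were followed through 6 small RNA libraries. A deposited sequence was taken when every tRNA annotation given to it was mt_tRNA-Glu-TTC, mt_tRNA-Thr-TGT or mt_tRNA-Pro-TGG. This held for 1102 of the 38798 distinct tRNA-derived small RNAs (tsRNAs) in the table, of which 497 came from tRNA-Glu, 314 from tRNA-Thr and 291 from tRNA-Pro. None of these sequences was shared with another tRNA. The libraries came from primary smooth muscle cells of the pulmonary artery of wild-type mice, which set the width of the lung's arteries by contracting. In 3 cultures the cells were kept at 3% oxygen for 24 hours (hypoxia), and 3 cultures stayed in normoxia as controls. The Pandora-seq libraries were made after an enzyme treatment that takes off RNA modifications known to block adapter ligation and reverse transcription. The table lists tRNA fragments only, so the labelled cell type could not be checked against marker genes.

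Mitochondrial DNA is transcribed from both strands into long RNAs in which tRNAs lie between the messenger and ribosomal RNAs. RNase P cuts at the 5′ end of each tRNA and RNase Z at its 3′ end, which also frees the neighbouring messenger RNA, and an enzyme then adds the bases CCA that carry the amino acid. Small RNAs that match a part of a mature tRNA are known from many tissues and arise by cuts in its loops or by trimming of its ends.

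The 3 genes surround the gene of cytochrome b, a subunit of respiratory complex III. In the mm10 assembly mt-Te (tRNA-Glu) lies at chrM:14071-14139 on the minus strand, directly next to mt-Nd6, a subunit gene of complex I on the same strand at chrM:13552-14070. The gene mt-Cytb follows on the plus strand at chrM:14145-15288. Next to it are mt-Tt (tRNA-Thr) at chrM:15289-15355 on the plus strand and mt-Tp (tRNA-Pro) at chrM:15356-15422 on the minus strand, so that the 3′ ends of mt-Tt and mt-Tp meet. The encoded tRNAs, 69, 67 and 67 nt long, are shown in full because all positions below refer to them. Positions count from 1 at the 5′ base, and capitals mark the anticodon, positions 31 to 33 in each.
mt_tRNA-Glu-TTC: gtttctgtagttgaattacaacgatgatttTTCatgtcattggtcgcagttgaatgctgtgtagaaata
mt_tRNA-Thr-TGT: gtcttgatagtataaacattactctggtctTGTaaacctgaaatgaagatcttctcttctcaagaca
mt_tRNA-Pro-TGG: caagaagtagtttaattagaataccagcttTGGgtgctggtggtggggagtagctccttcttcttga
The first 7 bases can pair with positions 62 to 68 in tRNA-Glu and with positions 60 to 66 in the other two, all 7 of 7 pairs in each tRNA counting G-U pairs. These pairs form the acceptor stem, and the CCA tail follows the last encoded base.

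The results turn on the following fragments, printed with their positions in the tRNA. Summed over all starts, fragments of tRNA-Glu that end on position 65 had the widest gap in mean CPM among the end positions of the 3 tRNAs. The sequences printed first are single members of that sum, each with a smaller gap.
Glu 29 to 65: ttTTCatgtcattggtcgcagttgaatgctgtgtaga
Glu 30 to 65: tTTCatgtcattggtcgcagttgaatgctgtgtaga
Glu 34 to 65: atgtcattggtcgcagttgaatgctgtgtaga
Glu 35 to 65: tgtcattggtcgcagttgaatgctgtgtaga
By their mean over the 6 libraries, which both replicates 1 dominate, the most abundant fragments of tRNA-Glu were 5′ ends, and the longest of them stops inside the 5′ strand of the anticodon stem (positions 24 to 28).
Glu 1 to 26: gtttctgtagttgaattacaacgatg
Glu 1 to 17: gtttctgtagttgaatt
Glu 1 to 19: gtttctgtagttgaattac
By the same mean, the leading fragments of tRNA-Thr span the anticodon and share their 3′ end at position 55.
Thr 18 to 55: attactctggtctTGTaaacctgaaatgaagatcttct
Thr 21 to 55: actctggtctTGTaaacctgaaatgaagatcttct
Thr 14 to 55: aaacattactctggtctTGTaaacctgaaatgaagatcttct
Those of tRNA-Pro stop inside the anticodon, stop at position 53, or reach into the CCA tail, whose first 2 bases end the third of them.
Pro 1 to 32: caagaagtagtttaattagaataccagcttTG
Pro 21 to 53: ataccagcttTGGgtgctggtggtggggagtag
Pro 52 to 69: agctccttcttcttgacc
Of the 1102 sequences, 1101 matched their gene followed by CCA exactly, and the other, with 3 counts in all, is left out wherever positions are given.

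The libraries held 510519, 2563749 and 1713960 tsRNA counts in hypoxia replicates 1, 2 and 3 and 330787, 2217965 and 1629726 in normoxia. The 3 tRNAs took 20228 of these counts, or 0.226%. Their sequences were mostly rare, with 783 of the 1102 under 10 counts over all libraries, 293 seen once and 82 found in all 6 libraries. Levels are given as CPM, counts scaled to a library total of 1000000 tsRNA counts. A level is therefore relative to all other tRNA fragments, and neither the number of cells nor the amount of RNA per cell can be read from it. Both libraries numbered 1 stood apart from the rest, and this touches every result below. Mitochondrial fragments were 15.3% of the counts of hypoxia replicate 1 and 14.4% of those of normoxia replicate 1, against 5.999% to 7.33% in the other 4 libraries. Values are therefore compared within same-numbered pairs of libraries, and fits are given with the group alone and with the replicate number as a block. Replicates 2 and 3 alone did not deviate together by number (correlation -0.02). The titles give only the numbers, so pairs 2 and 3 are not known to be matched.

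Summed over all its fragments, tRNA-Glu had a slightly higher level in hypoxia in every pair, tRNA-Thr a lower one in every pair, and tRNA-Pro differed little. None of these sums passed the test. Fragments of tRNA-Glu had 6891, 1181 and 1269 CPM in hypoxia replicates 1, 2 and 3 and 6442, 816 and 946 CPM in normoxia. The hypoxia libraries were higher by folds of 1.07, 1.45 and 1.34, and the groups overlapped (3114 ± 3271 against 2735 ± 3212 CPM, SD, n = 3) because both replicates 1 lay far above the others. Fragments of tRNA-Thr had 1802, 129 and 74.1 CPM in hypoxia against 1962, 141 and 174 in normoxia, folds of 0.919, 0.918 and 0.427. The third pair rests on few reads, with 127 counts in hypoxia against 283 in normoxia. Fragments of tRNA-Pro had 1355, 315 and 269.6 CPM in hypoxia against 1264, 262 and 269.98 in normoxia, so that the pair of replicates 3 was equal to within 1 CPM.

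**Figure D1:**
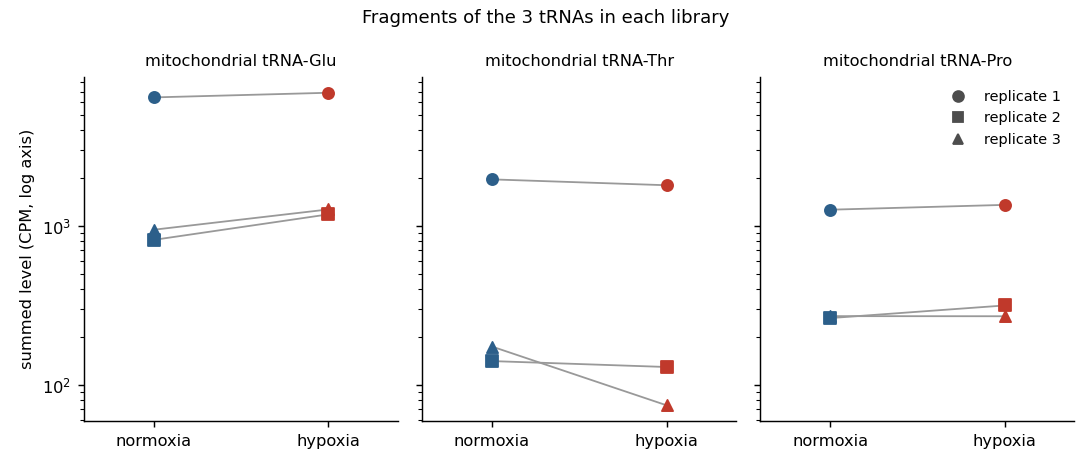
Summed level of the fragments of each tRNA in CPM (log axis) in the 3 normoxia and the 3 hypoxia libraries. Each point is 1 library and grey lines join libraries of the same replicate number. Both replicates 1 lie far above the others for all 3 tRNAs, at 6891 and 6442 CPM for tRNA-Glu against 816 to 1269 CPM.

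The distance of replicate 1 from the other libraries varied widely among the mitochondrial tRNAs and was not particular to these 3. The level of hypoxia replicate 1 was 5.62 times the mean of replicates 2 and 3 for tRNA-Glu, 17.7 times for tRNA-Thr and 4.64 times for tRNA-Pro, against 2.53 times for all mitochondrial tRNAs together. In normoxia the same ratios were 7.31, 12.5 and 4.75, against 2.06. The median of this ratio over the 22 mitochondrial tRNAs was 4.47 in hypoxia and 3.08 in normoxia. Ranked from the highest, tRNA-Thr was the second, tRNA-Glu came 8 and tRNA-Pro 11 of the 22 in hypoxia. Mitochondrial tRNA-Ile, at 36.3 times, was further apart than any of the 3. As a share of all mitochondrial counts the 3 tRNAs held 6.59%, 2.71% and 2.67% in hypoxia against 6.73%, 1.84% and 1.90% in normoxia. The share was higher in hypoxia in pairs 2 and 3 and lower in pair 1. Of it, tRNA-Glu alone held 4.52%, 1.97% and 2.10% in hypoxia against 4.49%, 1.23% and 1.29% in normoxia, higher in each pair.

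In edgeR's quasi-likelihood test over all 73 tRNAs with the group alone, the log2 change of the summed level was 0.19 for tRNA-Glu (SE 0.72), -0.29 for tRNA-Thr (SE 1.19) and 0.07 for tRNA-Pro (SE 0.55), each with a Benjamini-Hochberg adjusted p of 0.996. No tRNA of the 73 passed (0%), with 2 tRNAs lower and 0 higher where the p before adjustment was under 0.05. DESeq2 called 2 of the 71 tRNAs it gave an adjusted p (2.82%) and limma voom 0 of 73, none of them among these 3. With the replicate block 3 of 73 tRNAs passed (4.11%), none of them among these 3. The changes were then 0.32 for tRNA-Glu (SE 0.18, adjusted p = 0.311), -0.50 for tRNA-Thr (SE 0.23, adjusted p = 0.224) and 0.09 for tRNA-Pro (SE 0.18, adjusted p = 0.877). In the fit with the group alone the directions of all 3 depended on the libraries used. Without hypoxia replicate 1 the change of tRNA-Glu was -0.49 and that of tRNA-Pro -0.45, and without normoxia replicate 1 that of tRNA-Thr was 1.22.

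All 22 mitochondrial tRNAs of the table were taken as the wider list. With the group alone 4 had a change above 0 and 18 below, with a median log2 of -0.21 against -0.07 for all 73 tRNAs, and none passed. With the block none rose and 2 fell, and the median was -0.35 against -0.06 for all tRNAs. Ranked from the highest change, tRNA-Glu was the second of the 22 in both fits and tRNA-Pro the third, while tRNA-Thr came 13 with the group alone and 15 with the block. Without both libraries numbered 1, 8 of all 73 tRNAs passed (11.0%), and 7 of the 22 fell and none rose. In that fit tRNA-Glu had the highest change of the 22 (log2 0.45, SE 0.16, adjusted p = 0.146). Among the 3, which are nearly equal in length, tRNA-Glu had the highest mean level over the 6 libraries (2924 CPM), followed by tRNA-Thr (713.6 CPM) and tRNA-Pro (622.7 CPM). The gap between tRNA-Thr and tRNA-Pro was smaller than the spread between libraries, and in replicates 2 and 3 of both groups tRNA-Pro lay above tRNA-Thr.

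Other tRNAs whose pattern over the 6 libraries was most like each of the 3 were found by the root mean square difference of log2 levels, each centred on its own mean. For tRNA-Glu these were the nuclear tRNAs tRNA-Ser-GCT (0.18), tRNA-Pro-AGG (0.19) and tRNA-Arg-CCG (0.21), against a median of 0.96 over all other tRNAs. For tRNA-Thr they were the mitochondrial tRNAs tRNA-Ile-GAT (0.45) and tRNA-Leu-TAG (0.45) and the nuclear tRNA-Arg-TCG (0.51), against a median of 1.53. For tRNA-Pro they were the nuclear tRNA-Pro-CGG (0.12), tRNA-Pro-TGG (0.12) and tRNA-Ser-CGA (0.13), against a median of 0.76. The measure includes both libraries numbered 1, in which each of the 3 tRNAs had its highest levels.

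The part of the tRNA that the fragments covered differed between the 3 tRNAs and, within each, between replicate 1 and the others. In both replicates 1 most fragments of tRNA-Glu ended at or before the last base of the anticodon, 55.9% of counts in hypoxia against 69.2% in normoxia. In the other 4 libraries this share was 9.24% to 20.9%, and 45.0% to 53.8% of counts began at or after the first base of the anticodon. Fragments of tRNA-Thr mostly spanned the anticodon in replicate 1, with 80.4% in hypoxia against 82.7% in normoxia, and mostly lay on its 3′ side in the other libraries, with 54.2% to 80.3%. In those 4 libraries the spanning share was 12.7% and 5.51% in hypoxia against 34.9% and 25.4% in normoxia, lower in hypoxia in both pairs. The counts behind it were few, 42 and 7 in hypoxia against 109 and 72 in normoxia. Fragments of tRNA-Pro that ended at or before the last base of the anticodon made up 36.1%, 18.3% and 18.4% of its counts in hypoxia against 46.9%, 32.3% and 32.05% in normoxia, lower in hypoxia in each pair. Median fragment lengths moved with replicate 1 in tRNA-Thr and tRNA-Pro but not in tRNA-Glu. Over counts, the median length of tRNA-Thr fragments was 34 nt in hypoxia replicate 1 and 35 nt in normoxia replicate 1, against 20 to 21 nt in the other libraries. That of tRNA-Pro was 32 nt in both replicates 1, against 19 to 21 nt. For tRNA-Glu it was 26, 30 and 28 nt in hypoxia replicates 1, 2 and 3 and 26 nt in each normoxia library.

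**Figure D2:**
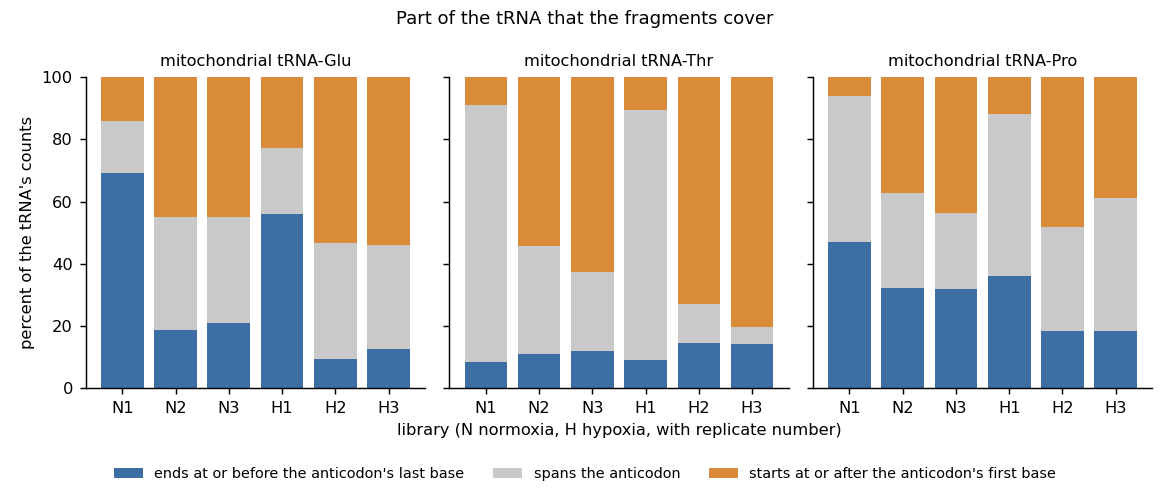
Stacked bars of the percent of each tRNA's counts in fragments that end at or before the last anticodon base (blue), span the anticodon (grey) or start at or after its first base (orange), for each library (N normoxia, H hypoxia). The libraries numbered 1 differ from the rest in each tRNA, for example with 80.4% and 82.7% spanning fragments in tRNA-Thr.

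Fragments that begin at the first base of the tRNA, the 5′ end class of the table, were lower in hypoxia in each pair for tRNA-Glu and tRNA-Pro. For tRNA-Glu they had 3896, 106 and 159 CPM in hypoxia against 4405, 153 and 201 in normoxia, folds of 0.885, 0.692 and 0.791. For tRNA-Pro the levels were 304, 9.36 and 9.34 CPM in hypoxia against 375, 21.2 and 34.4 in normoxia, folds of 0.810, 0.442 and 0.272. The groups overlapped in both tRNAs because of replicate 1. As a share of the counts of tRNA-Glu the class made up 56.5%, 8.98% and 12.5% in hypoxia against 68.4%, 18.8% and 21.2% in normoxia. In tRNA-Pro it made up 22.4%, 2.97% and 3.46% in hypoxia against 29.7%, 8.08% and 12.7% in normoxia. The difference of the mean shares was -10.1 percentage points in tRNA-Glu and -7.21 in tRNA-Pro, each with p = 0.5 in a two-sided exact permutation test over the 6 libraries (0.6 adjusted over the 6 shares tested), whose smallest possible p is 0.1. The difference in tRNA-Glu turned to 6.01 percentage points without normoxia replicate 1 and was -25.4 without hypoxia replicate 1, and that in tRNA-Pro was -0.79 and -13.6. Within same-numbered pairs no exact test can go below 0.25. In tRNA-Thr the class was rare, with 46, 17 and 0 counts in hypoxia against 33, 8 and 7 in normoxia, and its share of 0 in hypoxia replicate 3 allows up to 2.36%.

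The single 5′ fragments of tRNA-Glu had their highest levels in both replicates 1. The fragment Glu 1 to 26 had 1516, 29.6 and 32.7 CPM in hypoxia against 1935, 36.1 and 59.5 in normoxia, lower in hypoxia in each pair. Glu 1 to 17 had 974, 41.0 and 67.7 CPM in hypoxia against 1173, 73.5 and 84.1 in normoxia, again lower in each pair. Glu 1 to 19 ran differently, with 527, 9.36 and 29.8 CPM in hypoxia against 426, 10.4 and 13.5 in normoxia, higher in 2 of 3 pairs. With the group alone their log2 changes were -0.31, -0.26 and 0.41 with SE of 1.26 to 1.66, so that no difference could be told from the spread between libraries.

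The corresponding 5′ fragment of tRNA-Pro, Pro 1 to 32, stops after the second base of the anticodon. It had 127 CPM in hypoxia replicate 1 and 221 in normoxia replicate 1, against 1.23 to 5.07 CPM in the other libraries, and was too rare there to be tested. Fragments that ended on the same base but began later had 172, 46.8 and 38.5 CPM in hypoxia against 142, 43.3 and 44.2 in normoxia. Their folds were 1.21, 1.08 and 0.872, with no common direction. One of them, Pro 14 to 32 with the sequence aattagaataccagcttTG, was one of the 3 fragments with a lower level in hypoxia that had the smallest unadjusted p among those averaging at least 10 CPM, with 23.5, 5.46 and 2.33 CPM in hypoxia against 27.2, 20.7 and 7.36 in normoxia (log2 -1.03, SE 0.91, unadjusted p = 0.291 by edgeR's quasi-likelihood test). It did not pass the adjusted threshold.

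Fragments of the internal class, which neither begin on the first base nor end on the last encoded base or on the full CCA, were higher in hypoxia in each pair for tRNA-Glu. They had 2897, 1049 and 1083 CPM in hypoxia against 1992, 649 and 709 in normoxia, folds of 1.45, 1.62 and 1.53. Within replicates 2 and 3 the groups did not overlap, while normoxia replicate 1 lay above both of those hypoxia libraries. For tRNA-Pro the internal class had folds of 1.17, 1.24 and 1.08, and for tRNA-Thr folds of 0.912, 0.859 and 0.384. Over the 240 sums of a tRNA and a class, edgeR's quasi-likelihood test called 0 with the group alone (0%; 2 higher and 1 lower where the p before adjustment was under 0.05), also 0 with the replicate block (0%), and DESeq2 and limma voom called 0. With the block the internal class of tRNA-Glu had a log2 change of 0.59 (SE 0.17, Benjamini-Hochberg adjusted p = 0.280). Its 5′ class was at -0.37 (SE 0.19, adjusted p = 0.403), and the 5′ class of tRNA-Pro was at -1.08 (SE 0.42, adjusted p = 0.319). At an unadjusted p under 0.05 with the block, 1 of the 8 tested sums of the 3 tRNAs was higher and 1 lower, and over all 240 sums 16 were higher and 16 lower.

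Within tRNA-Glu the difference between the groups in CPM was largest at a single 3′ end. Fragments whose last base was position 65, in the 3′ strand of the acceptor stem and 4 bases short of the encoded end, had 844, 374 and 383 CPM in hypoxia against 233, 153 and 147 CPM in normoxia. Every hypoxia library lay above every normoxia library, with folds of 3.63, 2.44 and 2.60 in pairs 1, 2 and 3 and means of 534 ± 269 against 178 ± 48 CPM (SD, n = 3). The counts behind these levels were 431, 960 and 657 in hypoxia against 77, 340 and 240 in normoxia. A two-sided exact permutation test over the 6 libraries gave p = 0.1, the smallest it can give. The position was singled out after the levels at all ends had been seen.

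**Figure D3:**
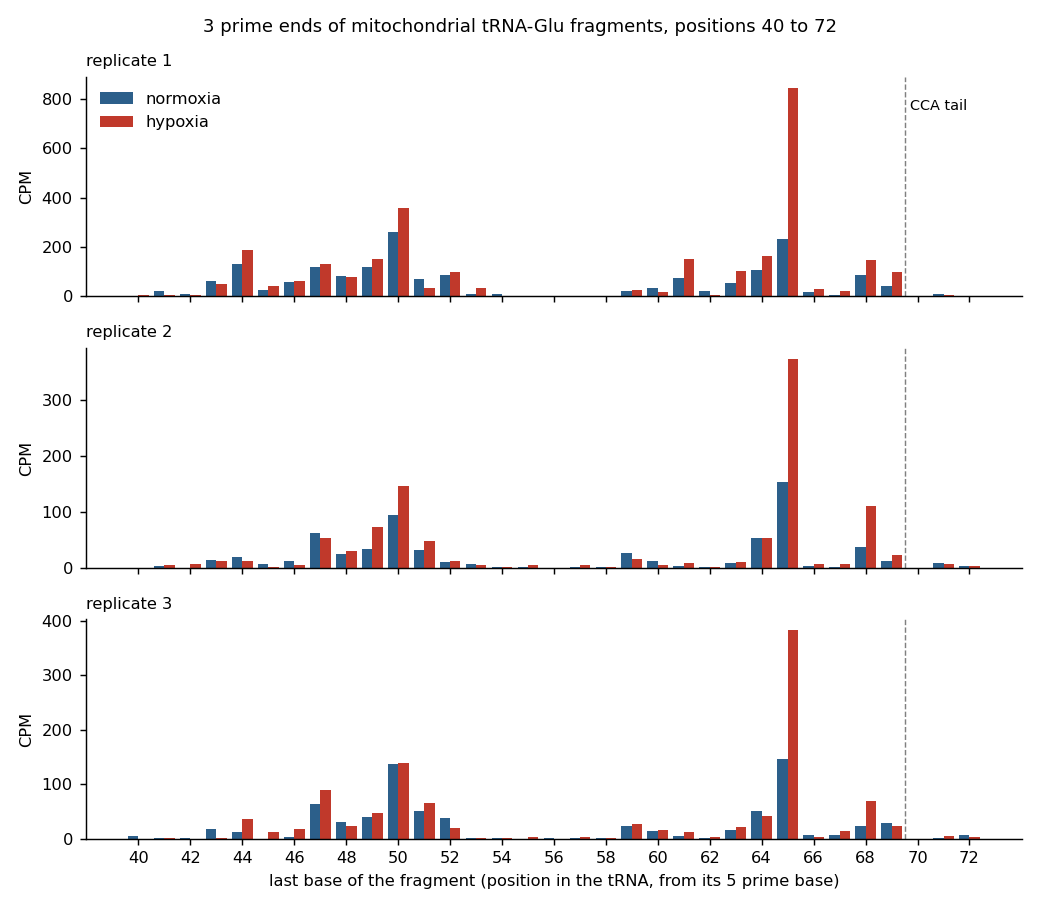
Level in CPM of mitochondrial tRNA-Glu fragments by the position of their last base, from 40 to 72, in normoxia (blue) and hypoxia (red) for each replicate number; each panel has its own axis, and the dashed line marks the end of the encoded tRNA. The tallest difference is at position 65, with 844 against 233, 374 against 153 and 383 against 147 CPM, while position 64 next to it shows no common direction.

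To test end positions, counts were summed by last base over all 22 mitochondrial tRNAs and fitted together, a step added after the levels had been seen. With the group alone edgeR's quasi-likelihood test called 0 of 369 end positions (0%), and position 65 of tRNA-Glu had a log2 change of 1.75 (SE 0.51, unadjusted p = 0.00927, Benjamini-Hochberg adjusted p = 0.999). In that fit 9 of the 369 positions had an unadjusted p under 0.05 and a higher level in hypoxia and 2 a lower one, and DESeq2 and limma voom called 0. With the replicate block edgeR called 7 of 369 (1.90%), and position 65 of tRNA-Glu was 1 of them and the only one of the 48 tested positions of the 3 tRNAs. Its change was again 1.75, with a smaller SE of 0.26 and an adjusted p of 0.00713. Without both libraries numbered 1 it was 1.72 (SE 0.18, adjusted p = 0.0158), 1 of 4 calls among 339 positions (1.18%). With the block DESeq2 called 14 of 361 positions (3.88%) and limma voom 9 of 369 (2.44%), and in each of these fits positions 65 and 68 of tRNA-Glu were the calls among the 3 tRNAs. The other 6 calls with the block were positions 65, 66, 67 and 69 of mitochondrial tRNA-Val, which were higher in hypoxia, and position 32 of mitochondrial tRNA-Ile and position 22 of mitochondrial tRNA-Ser-GCT, which were lower. The call of tRNA-Glu depended on the pairs used and on the scaling. With the block it did not pass without pair 3 (adjusted p = 0.222) or without pair 1 (adjusted p = 0.0551). It passed without pair 2 (adjusted p = 0.0335). With the block and scaling factors from all tsRNAs in place of the end positions, its log2 change was 1.496. It then did not pass in edgeR's quasi-likelihood test (adjusted p = 0.0591). With the block it passed with DESeq2 size factors (adjusted p = 0.000471) and with library size (adjusted p = 0.0399).

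Of the neighbouring ends of tRNA-Glu some were higher in hypoxia by a like fold, at lower levels, and others were not. Fragments ending on position 64 had 165, 53.4 and 42.0 CPM in hypoxia against 109, 52.8 and 50.3 in normoxia, which is higher in pair 1, about equal in pair 2 and lower in pair 3. Those ending on position 66 were few, at 4.08 to 29.4 CPM in hypoxia against 3.16 to 18.1 in normoxia. Those ending on position 67 were also few, at 23.5, 6.63 and 13.4 CPM in hypoxia against 6.05, 1.35 and 6.75 in normoxia, higher in each pair by folds of 3.89, 4.90 and 1.99 with overlapping groups. Their log2 change of 1.79 with the group alone (SE 0.86) and 1.93 with the block (SE 0.84, adjusted p = 0.487 by edgeR's quasi-likelihood test) was as large as that at position 65 and did not pass. Those ending on position 68, a base before the encoded end, had 147, 111 and 70.01 CPM in hypoxia against 87.7, 37.0 and 23.3 in normoxia, folds of 1.68, 3.01 and 3.00 with overlapping groups. With the replicate block in edgeR's quasi-likelihood test their log2 change was 1.58 (SE 0.41, Benjamini-Hochberg adjusted p = 0.153), and without the libraries numbered 1 it was 1.94 (SE 0.39, adjusted p = 0.103). Ends on position 61 had 151, 8.19 and 11.7 CPM in hypoxia against 75.6, 3.16 and 4.91 in normoxia. They were higher in each pair, with overlapping groups, and did not pass with the block (log2 1.39, SE 0.57, adjusted p = 0.487). The folds were 1.87, 1.08 and 1.37 at position 63 and 2.31, 2.08 and 0.809 at position 69. Ends on position 50 had 358, 147 and 139 CPM in hypoxia against 259.99, 95.1 and 138 in normoxia, so that the third pair was equal to within 2 CPM.

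Counts that end on position 65 took a larger share in hypoxia of all fragments reaching the last part of tRNA-Glu. This share contains the same counts by which the position was singled out, so its p is not separate support. Of the counts ending on positions 63 to 72 they were 59.4%, 62.8% and 67.7% in hypoxia against 41.2%, 54.9% and 51.5% in normoxia. The groups did not overlap (difference of means 14.1 percentage points; two-sided exact permutation test, p = 0.1, the smallest possible). The least certain of these shares was that of normoxia replicate 1, on 77 of 187 counts, with a 95% Wilson interval of 34.4% to 48.3%. In the pair of replicates 2 the intervals were 60.3% to 65.2% in hypoxia against 50.99% to 58.8% in normoxia, which do not meet. No molecular identifiers are named in the sources used here, so such intervals cover counting error only.

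The difference at position 65 was spread over many start positions and did not rest on a single sequence. The 29 distinct sequences that end there begin between positions 21 and 51. Of them 16 had a higher level in hypoxia in each of the 3 pairs, and none had a lower one in each. Among the 16 that were tested 13 were higher in each pair, where 15.0% of all tested tsRNAs were. The sequences that began at positions 28 to 30, just before the anticodon, had 135, 97.9 and 88.1 CPM in hypoxia against 36.3, 27.5 and 20.9 in normoxia, folds of 3.73, 3.56 and 4.22. Those that began at or after position 34, right behind the anticodon, had 519, 212 and 218 CPM in hypoxia against 109, 93.3 and 83.4 in normoxia, folds of 4.77, 2.27 and 2.61. In both sets every hypoxia library was above every normoxia library. The sequences overlap and are parts of a sum singled out after its levels had been seen, so these counts and sets describe its make-up and are not separate support. Single starts were less even, and 9 of the 29 were lower in hypoxia in at least 1 pair, 4 of them at or after position 34. A start on position 31, the first base of the anticodon, was at 13.7, 3.12 and 2.33 CPM in hypoxia against 6.05, 13.5 and 4.91 in normoxia, and no other start was lower in 2 pairs.

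**Figure D4:**
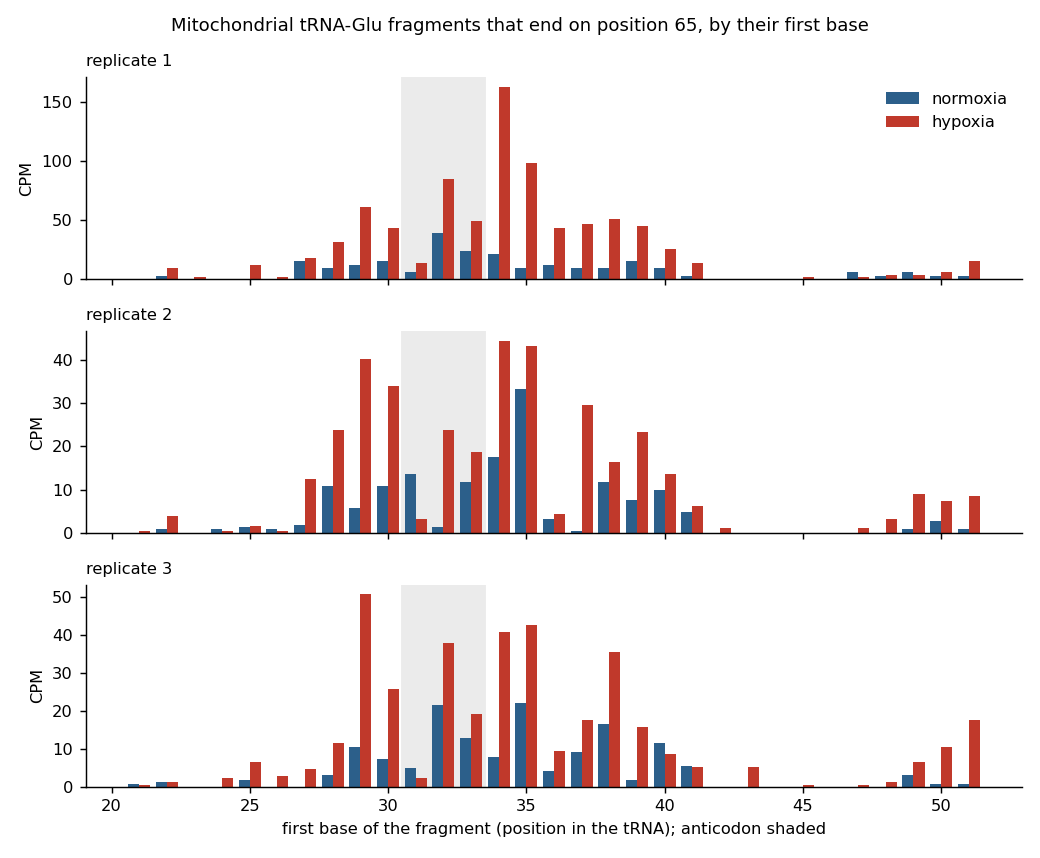
Level in CPM of mitochondrial tRNA-Glu fragments that end on position 65, by the position of their first base, in normoxia (blue) and hypoxia (red) for each replicate number; the anticodon is shaded and each panel has its own axis. Starts at positions 28 to 30 are higher in hypoxia in each pair, as are 9 of the 16 starts at 34 and later, for example 34 with 163 against 21.2, 44.5 against 17.6 and 40.8 against 7.98 CPM.

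None of the single sequences of this set passed the test. Glu 29 to 65, which begins on the first base of the anticodon loop (positions 29 to 35), had 60.7, 40.2 and 50.8 CPM in hypoxia against 12.1, 5.86 and 10.4 in normoxia. All hypoxia libraries lay above all normoxia libraries, and replicate 1 did not stand apart here. The normoxia levels rest on few counts, 4, 13 and 17 in replicates 1, 2 and 3. The log2 change of Glu 29 to 65 was 2.41 with the group alone (SE 0.64, unadjusted p = 0.00557) and 2.45 with the block (adjusted p = 0.0871). Glu 34 to 65, which begins on the base after the anticodon, had 163, 44.5 and 40.8 CPM in hypoxia against 21.2, 17.6 and 7.98 in normoxia (log2 2.27, SE 0.72, and 2.12 with the block, adjusted p = 0.110). Its level in normoxia replicate 1 rests on 7 counts. Glu 35 to 65 had 97.9, 43.3 and 42.6 CPM in hypoxia against 9.07, 33.4 and 22.1 in normoxia, a wide difference in pair 1 on 3 counts in normoxia and smaller ones in pairs 2 and 3. Glu 30 to 65 had 43.1, 33.9 and 25.7 CPM in hypoxia against 15.1, 10.8 and 7.36 in normoxia (log2 1.63, SE 0.62). The adjusted p-values are from edgeR's quasi-likelihood test over all 6452 tested tsRNAs.

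The start on position 34 was common with other ends too. All tRNA-Glu fragments that begin there had 574, 221 and 218 CPM in hypoxia against 311, 136 and 139 in normoxia, folds of 1.84, 1.62 and 1.57. Leaving out the one that ends on position 65, they had 411, 177 and 177 CPM in hypoxia against 290.2, 119 and 131 in normoxia, folds of 1.42, 1.49 and 1.36. Those that end on positions 47 to 51 were at 104, 81.5 and 93.4 CPM in hypoxia against 127, 70.3 and 75.5 in normoxia, lower in pair 1 and higher in pairs 2 and 3. A short fragment over the anticodon, Glu 27 to 43 with the sequence atttTTCatgtcattgg, was another of the 3 fragments with a lower level in hypoxia and the smallest unadjusted p, with 21.5, 2.73 and 0 CPM in hypoxia against 42.3, 0.902 and 7.36 in normoxia (log2 -1.08, SE 1.58, unadjusted p = 0.515 by edgeR's quasi-likelihood test). The groups overlapped, and it did not pass the adjusted threshold. Among the fragments of tRNA-Glu with the internal class, those with any other end than position 65 had folds of 1.17, 1.36 and 1.25.

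Of the 1102 sequences 82 passed the filter on low counts, 58 from tRNA-Glu, 6 from tRNA-Thr and 18 from tRNA-Pro, and held 60.3% of the counts of the 3 tRNAs. For tRNA-Thr the tested sequences held only 15.5% of its counts. Of the 6452 tsRNAs tested in all, edgeR's quasi-likelihood test called 0 by group only (0%) and 10 once the replicate block was added (0.155%), and none of either was among the 82. With the group alone 4 of the 82 had an unadjusted p under 0.05 and a higher level in hypoxia and none a lower one, beside 18 and 27 of all tested tsRNAs. DESeq2 and limma voom called 0 of the 6452 as well. At an unadjusted p under 0.05, 7 of the 82 were higher and 0 lower in DESeq2, beside 34 and 50 of all, and 8 and 0 in limma voom, beside 56 and 53. In each of the 3 pairs 26 of the 82 had a higher level in hypoxia, where 15.0% of all tested tsRNAs were, and 9 were lower, where 13.4% of all were. Those higher in all pairs were 22 of tRNA-Glu and 4 of tRNA-Pro. The median log2 change was 0.48 for the 82 and 0.02 for all tested tsRNAs. Of the tested sequences 16 end on position 65 of tRNA-Glu and overlap, 13 of them higher in all 3 pairs, and a sequence can pass the filter through the group in which it is high, so these counts describe the fragments and are not separate signals.

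The fragments of tRNA-Thr and tRNA-Pro had their own common 3′ ends. In tRNA-Thr, ends on positions 51 to 57 had 1205, 84.3 and 44.9 CPM in hypoxia against 1512, 92.4 and 141 in normoxia, lower in hypoxia in each pair. The part of them that begins at positions 11 to 24, and so spans the anticodon, had 987, 11.7 and 1.17 CPM in hypoxia against 1327, 40.6 and 38.04 in normoxia. Both replicates 1 thus lay far above the other libraries, and the folds in the pairs were 0.744, 0.288 and 0.0307. The last 2 folds rest on few counts, 30 and 2 in hypoxia replicates 2 and 3 against 90 and 62 in normoxia. The end on position 55, the most common in all libraries but hypoxia replicates 2 and 3, had 374, 14.8 and 3.50 CPM in hypoxia against 619.7, 24.8 and 60.1 in normoxia. In hypoxia replicates 2 and 3 position 51, at 19.9 and 14.003 CPM, lay above it. With the block in edgeR's quasi-likelihood test its log2 change was -1.38 (Benjamini-Hochberg adjusted p = 0.487). With the group alone it was -1.06, and 0.33 without normoxia replicate 1.

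By the mean over the 6 libraries, which both replicates 1 dominate, the end on position 55 of tRNA-Thr was led by 3 sequences. They did not lead it everywhere. In the order below they had 2, 1 and 13 of its 98 counts in normoxia replicate 3. In hypoxia they had 0, 14 and 0 of its 38 counts in replicate 2 and 0 of its 6 in replicate 3. Thr 18 to 55 had 102 CPM in hypoxia replicate 1 and 187 in normoxia replicate 1, and was at 0 in hypoxia replicates 2 and 3 and at 1.35 and 1.23 CPM in normoxia replicates 2 and 3, too low to be tested. Thr 21 to 55 had 72.5, 5.46 and 0 CPM in hypoxia against 136, 10.4 and 0.614 in normoxia (log2 -0.87, SE 1.83). Thr 14 to 55 had 45.1, 0 and 0 CPM in hypoxia against 127, 1.35 and 7.98 in normoxia (log2 -1.64, SE 2.06). All were lower in hypoxia in each pair, at levels in pairs 2 and 3 that rest on few counts. Fragments on the 3′ side of the anticodon of tRNA-Thr showed no common direction, with 188, 94.0 and 59.5 CPM in hypoxia against 175, 76.2 and 109 in normoxia.

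In tRNA-Pro, ends on position 53 were the most common in all 6 libraries. They had 411, 107 and 96.9 CPM in hypoxia against 402, 69.4 and 54.0 in normoxia, folds of 1.02, 1.54 and 1.79. The level was higher in hypoxia in each pair, by a small margin in pair 1. With the block in edgeR's quasi-likelihood test the log2 change was 0.74 (SE 0.36, Benjamini-Hochberg adjusted p = 0.518). The leading sequence of this end, Pro 21 to 53, had 102, 20.7 and 26.8 CPM in hypoxia against 106, 22.99 and 17.8 in normoxia, lower in pairs 1 and 2 and higher in pair 3.

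**Figure D5:**
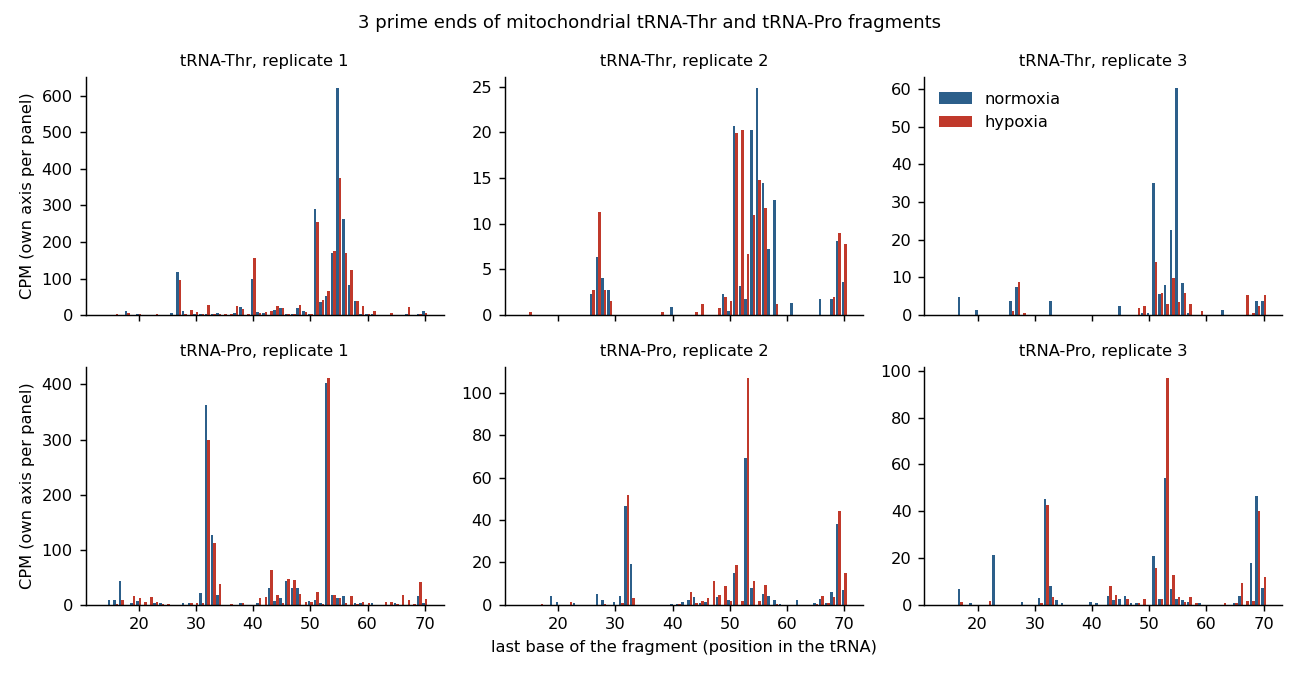
Level in CPM of mitochondrial tRNA-Thr (top) and tRNA-Pro (bottom) fragments by the position of their last base in normoxia (blue) and hypoxia (red), with an axis of its own for each panel. The tRNA-Thr end on position 55 has 374 and 619.7 CPM in replicates 1 and at most 60.1 CPM in the others, and the tRNA-Pro end on position 53 has 411 and 402, 107 and 69.4, and 96.9 and 54.0 CPM in hypoxia and normoxia.

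Few fragments of the 3 tRNAs carried the CCA tail, the mark of a complete 3′ end. In tRNA-Pro those with the full CCA had 9.79, 15.2 and 11.7 CPM in hypoxia against 3.02, 6.76 and 7.36 in normoxia, without overlap between the groups and with folds of 3.24, 2.25 and 1.58. They rest on 5, 39 and 20 counts in hypoxia against 1, 15 and 12 in normoxia. The exact permutation p of the level was 0.1, the smallest possible, but the planned test was on the share of the tRNA's counts. That share was 0.723%, 4.83% and 4.33% in hypoxia against 0.239%, 2.58% and 2.73% in normoxia. It was higher in each pair, with overlapping groups (exact permutation p = 0.4, or 0.6 adjusted over the 6 shares tested). In the fit over tRNA and class sums the log2 change of the level with the block was 0.99 (SE 0.73, adjusted p = 0.527 by edgeR's quasi-likelihood test). Fragments that stop on the second base of the tail of tRNA-Pro were more abundant than complete ones in each library, with 41.1, 44.1 and 40.3 CPM in hypoxia against 15.1, 37.9 and 46.6 in normoxia. The leading one, Pro 52 to 69, had 27.4, 38.2 and 37.9 CPM in hypoxia against 12.1, 20.3 and 45.4 in normoxia, higher in pairs 1 and 2 and lower in pair 3. In tRNA-Thr full tails had 5.88, 7.80 and 5.25 CPM in hypoxia against 12.1, 3.61 and 3.68 in normoxia. In tRNA-Glu they had 0, 3.12 and 3.50 CPM in hypoxia against 3.02, 2.71 and 7.36 in normoxia. The 0 of 3518 counts in hypoxia replicate 1 allows a share of up to 0.0853% of the tRNA's counts. Fragments of tRNA-Glu that reach into the tail at all, on positions 70 to 72, stayed at 8.75 to 11.8 CPM in hypoxia against 7.98 to 15.1 in normoxia, so that the higher level at position 65 had no counterpart there.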

How the data were processed

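The deposited values are raw counts per distinct sequence, and the table gives the tRNA and the fragment class of each. The genome build is mm10 per the submitters' processing notes; for the aligner, the source of the tRNA sequences and filters on reads, the entry is: not given in the sources used here. Genes came from GENCODE M21 on GRCm38, the assembly of mm10, and positions from exact matches to the gene followed by CCA. The members, lists and tests were chosen with earlier results of these data known. Named sequences are the 3 most abundant per tRNA, the most abundant per class from 10 CPM and any called one. Added to these, among tested ones from 10 CPM, are the 3 higher and the 3 lower in hypoxia with the smallest unadjusted p. Counts per sequence, tRNA, tRNA and class, and mitochondrial end position were fitted over the whole table with edgeR 4.0.16 in R 4.3.3 (quasi-likelihood test, TMM scaling, filterByExpr except for tRNAs, Benjamini-Hochberg adjusted p under 0.05). Only the fit with the group alone was tried on simulated data, which had less spread than the real counts and no offset of replicate 1. The fit with the block was not tried in this way. DESeq2 1.42.0 and limma 3.58.1 were alternatives to edgeR. Exact permutation tests and Wilson intervals used Python 3.11.15 with SciPy 1.17.1. The share of mitochondrial counts is given without the planned p, since the members were chosen with results known. Same-numbered libraries deviated from their group means together (correlations 0.80, 0.52 and 0.44), but not among replicates 2 and 3 alone (-0.02); the titles give only the numbers. The design text calls the replicates biological.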

Additional observations from a re-analysis of the deposited data

How the results depend on the processing

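Results were recomputed with other scalings, without the filter on low counts, with DESeq2 or limma voom, with the replicate block, and without each library or both of those numbered 1. Over 40 results they gave 551 values, of which 493 kept the direction and the side of the threshold, 42 turned the direction and 16 passed only in the alternative. No tested sequence, tRNA sum or class sum of the 3 tRNAs passed in any of them. Sequences shared with other tRNAs numbered 0, and classes set by position equalled the table's, so these alternatives gave the same values.

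The replicate block moved the count of called end positions of the 3 tRNAs from 0 to 1, as did leaving out both libraries numbered 1, the block with DESeq2 size factors, with library size or without pair 2. The block with DESeq2 and with limma voom each gave 2, position 68 of tRNA-Glu being the other, among 14 (3.88%) and 9 (2.44%) calls over all positions. The log2 change of position 65 was 1.75 with the replicate block, 1.72 without the libraries numbered 1, and with the block 1.70 with DESeq2 size factors, 1.503 with library size, 1.70 with DESeq2, 1.75 with limma voom and 1.84 without pair 2. With the block and factors from all tsRNAs the adjusted p in edgeR was 0.0591, and over the blocked settings it ran from 1.06e-07 to 0.222.

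Leaving out 1 library at a time turned the unblocked direction of most other changes, and the lowest and highest log2 values follow. They were -0.49 and 1.16 for the sum of tRNA-Glu, -2.15 and 1.22 for tRNA-Thr and -0.45 and 0.66 for tRNA-Pro. For 5′ ends they were -2.54 and 1.81 in tRNA-Glu, -2.98 and 0.77 in tRNA-Pro and -2.28 and 1.84 in tRNA-Thr, and for internal fragments -0.12 and 0.44 in tRNA-Pro and -2.08 and 0.94 in tRNA-Thr. Position 55 of tRNA-Thr gave -3.02 and 0.33. Single sequences gave -3.76 and 2.82 (Glu 1 to 26), -2.41 and 1.60 (Glu 1 to 17), -2.24 and 3.35 (Glu 1 to 19), -2.84 and 0.30 (Glu 27 to 43), -3.39 and 1.54 (Thr 21 to 55), -8.58 and 0.92 (Thr 14 to 55), -0.55 and 0.84 (Pro 21 to 53) and -0.10 and 1.15 (Pro 52 to 69). The difference in the 5′ end share ran from -25.4 to 6.01 percentage points in tRNA-Glu and from -0.87 to 1.69 in tRNA-Thr. Nearly all extremes came from leaving out a library numbered 1, which leaves its partner unmatched. The cause of those libraries' distance was not tested. Depth limited tRNA-Thr most, with 127 to 331 counts in each library numbered 2 or 3.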
